A study of Homo sapiens with 9 samples.

Results

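The genes described are 36 direct targets of the transcription factor p53, named as a list and measured by the gene probes whose identifier is a RefSeq transcript of a listed gene. Of the 36 genes, 35 had such a probe, and 34 were measured well enough to be tested, out of 21832 genes tested on the arrays as a whole. CYFIP2 had no probe under this rule, and the probe of TNFRSF10A, a receptor of the death ligand TRAIL, was not kept because it was not well above background on all 3 arrays of any group. RNA came from A2780, an established human ovarian carcinoma cell line, left untreated or exposed for 24 h to DIG-MSK at 8 nM or at 80 nM. DIG-MSK is a mithramycin analogue that binds C/G-rich DNA in the minor groove. Each group had 3 arrays of 1 color, which the study's methods describe as independent biological replicates of that single line, and no group carried any other treatment or genetic change. The untreated and 8 nM arrays lay on slide 1 and the 80 nM arrays on slide 2, so the higher dose and the second slide cannot be told apart in any value given for 80 nM.

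The p53 protein is activated by DNA damage and other stresses, binds response elements in or near its target genes, and raises their transcription. Its best known targets halt the cell cycle, repair DNA, prepare cells for death, or feed back on p53 itself, as MDM2 does by marking p53 for degradation.

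Levels are log2 intensities minus the log2 of the 75th percentile of the same array, so 0 is the level of a fairly bright gene, and levels of different genes are not compared because each comes from its own probe. Calls needed a change of at least 1.5-fold (up-regulated) or at most 0.67-fold (down-regulated) together with an adjusted p under 0.05 from limma with Benjamini-Hochberg adjustment over all genes tested. A gene past the adjusted p but short of the fold limit is said to have risen or fallen under the fold limit. Probes well above background numbered 24814 to 27151 per array, and arrays of 1 group correlated at 0.989 or more across genes, with the lowest values involving replicate 2 at 8 nM. Of 18 marker genes, KRT8, KRT18, KRT19 and EPCAM were measured, whereas CDH1, PAX8, WT1 and MUC16, other markers of epithelium or gynecological carcinoma, were not. CD3E, PECAM1, VWF and LUM were not kept either, and the kept leukocyte markers PTPRC and CD14 and the endothelial marker CDH5 had summed levels of at most 0.152 and 0.148 times the 75th percentile of the array. EPCAM rose by 0.90 at 8 nM (limma adjusted p = 0.034) and was down-regulated at 80 nM with a change of -0.91 (adjusted p = 0.0086). The fibroblast markers DCN and PDGFRA were expressed in these cells and fell at 80 nM, their summed level going from 2.5 to 2.99 in untreated cells to 0.119 to 0.154. The part of these markers in the results below was not tested.

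At 8 nM DIG-MSK, most of the p53 targets rose and none passed the test downward. Of the 34 genes tested, 26 were up-regulated, or 76.5%, against 3.7% of all genes tested, and 0 were down-regulated by limma, against 1.39% of all genes. With an unadjusted p under 0.05 in place of the adjusted one, 27 were up-regulated (4.23% of all genes) and 0 down-regulated (2.84%). Another 3 genes, TNFRSF10B, AEN and TIGAR, rose under the fold limit, which made 29 past the adjusted p in the upward direction (7.89% of all genes). For the same 29 genes all 3 treated arrays lay above all 3 untreated arrays, as 15.8% of all genes did. The median log2 change of the 34 genes was 0.88, whereas that of all genes was -0.06. The median deviation of the 34 genes from their untreated means was 0.88, 0.94 and 0.90 on the 3 arrays at 8 nM, and between 31 and 33 genes lay above that mean on each. Since RNA of whole cultures was hybridized, a change in each cell and a change in the number of cells that express a gene cannot be told apart. The count was lower, 16, when arrays were scaled to the 10 spike-in probes, although the median change was then 0.96. That scaling also lowered the share of all genes up-regulated, to 1.58%.

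At 80 nM, 20 of the 34 genes were up-regulated, or 58.8%, against 18.4% of all genes, and 0 were down-regulated by limma, against 15.9%. With an unadjusted p under 0.05 the counts were again 20 (18.8% of all genes) and 0 (16.2%). The test alone was passed by 29 genes in the upward direction (33.2% of all genes) and by MDM4 in the downward direction (25.6%). In 30 genes the 80 nM arrays lay entirely above the untreated ones, which was true of 40.3% of all genes. Both doses were compared with the same untreated arrays, so the lists of calls are not independent. Calls at both doses were found for 16 genes (47.1%, against 1.67% of all genes), at 8 nM alone for 10 (29.4%, against 1.38%), and at 80 nM alone for 4 (11.8%, against 16.6%), namely CCNG1, SERTAD1, PERP and TIGAR. The fold limit set much of this split, since 7 of the 10 and 1 of the 4 also passed the test upward at the other dose. The median change of the 34 genes was 0.71, with 0.68, 0.67 and 0.74 on the 3 arrays, while the median of all genes was 0.08. Scaling to the spike-in probes moved the median of all genes at 80 nM to -0.20 and that of the p53 targets to 0.43. It left 11 genes up-regulated (8.22% of all genes) and MDM4 down-regulated (22.7%). It turned MDM2, TNFRSF10B and AEN, which rose under the fold limit, to values between -0.029 and -0.002. PHLDA3, NINJ1, RPS27L and SESN2, which had not passed the test, were put below 0 as well.

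**Figure D1:**
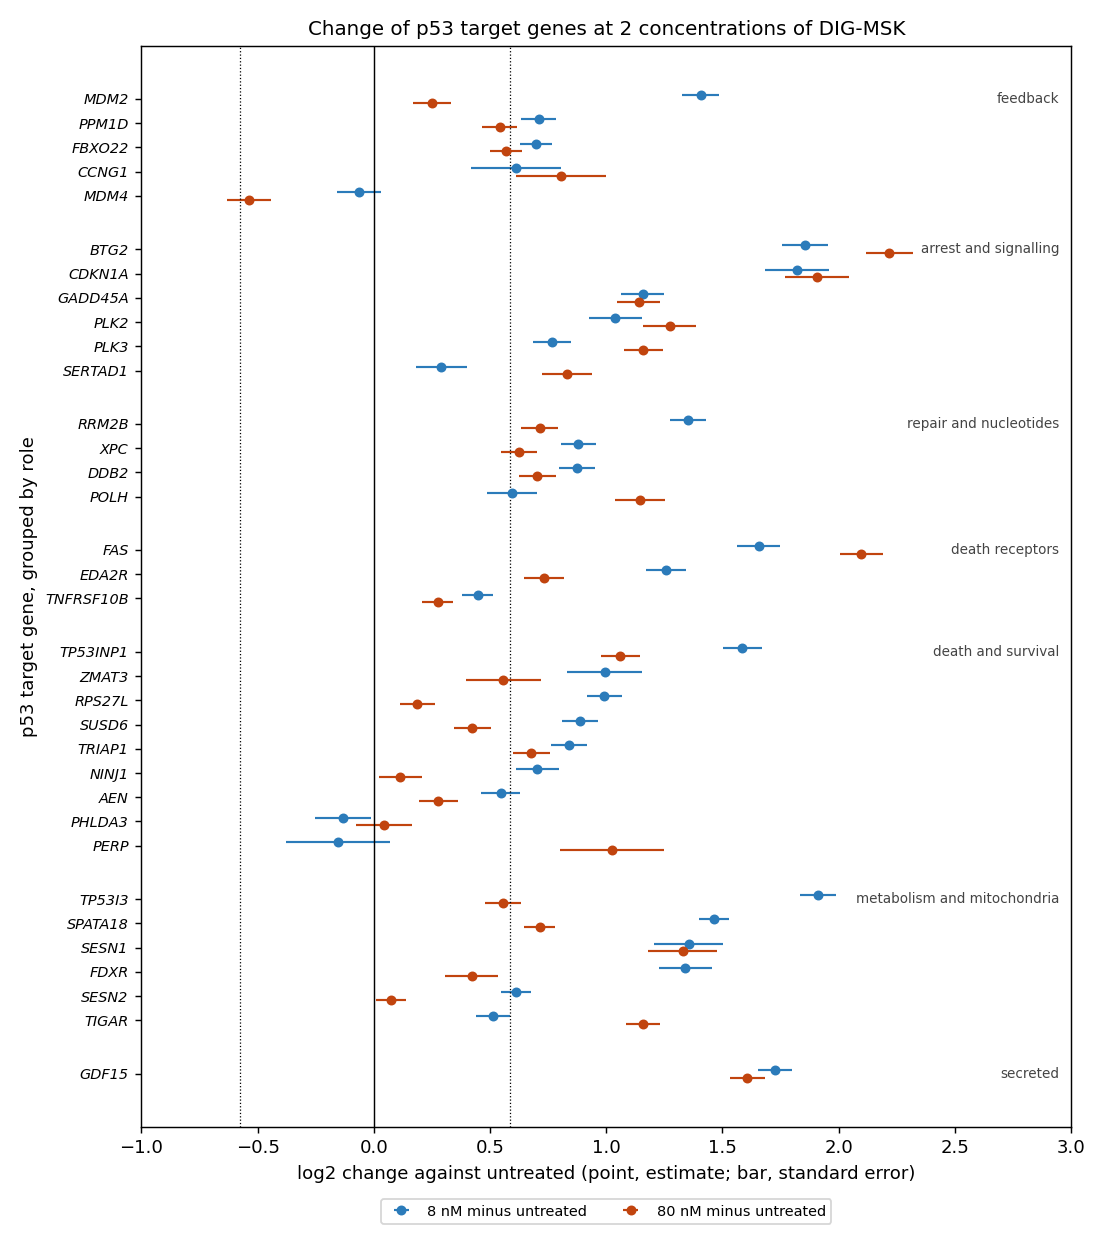
Log2 change against untreated cells of the 34 p53 target genes tested, grouped by role, at 8 nM (blue) and 80 nM (red-brown) DIG-MSK. Points are limma estimates, bars are standard errors and dotted lines mark the fold limits. At 8 nM 26 genes lie past the upper limit with an adjusted p under 0.05, and at 80 nM 20 genes do.

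The direct comparison of 80 nM with 8 nM separated the list. Higher levels at 80 nM were called for 2 genes, PERP and TIGAR (5.88% of the list, against 18.9% of all genes), and lower levels for 7 genes, TP53I3, MDM2, FDXR, RPS27L, SPATA18, RRM2B and NINJ1 (20.6%, against 13.8%). By the adjusted p alone, 7 genes were higher (34.6% of all genes) and 15 were lower (22.9%). The arrays did not overlap for 7 genes that were higher at 80 nM (39.3% of all genes) and for 20 that were lower (25.5%). The median difference was -0.17 for the list and 0.12 for all genes. With the spike-in scaling, 0 genes were called higher and 12 lower, against 5.91% and 23.2% of all genes.

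**Figure D2:**
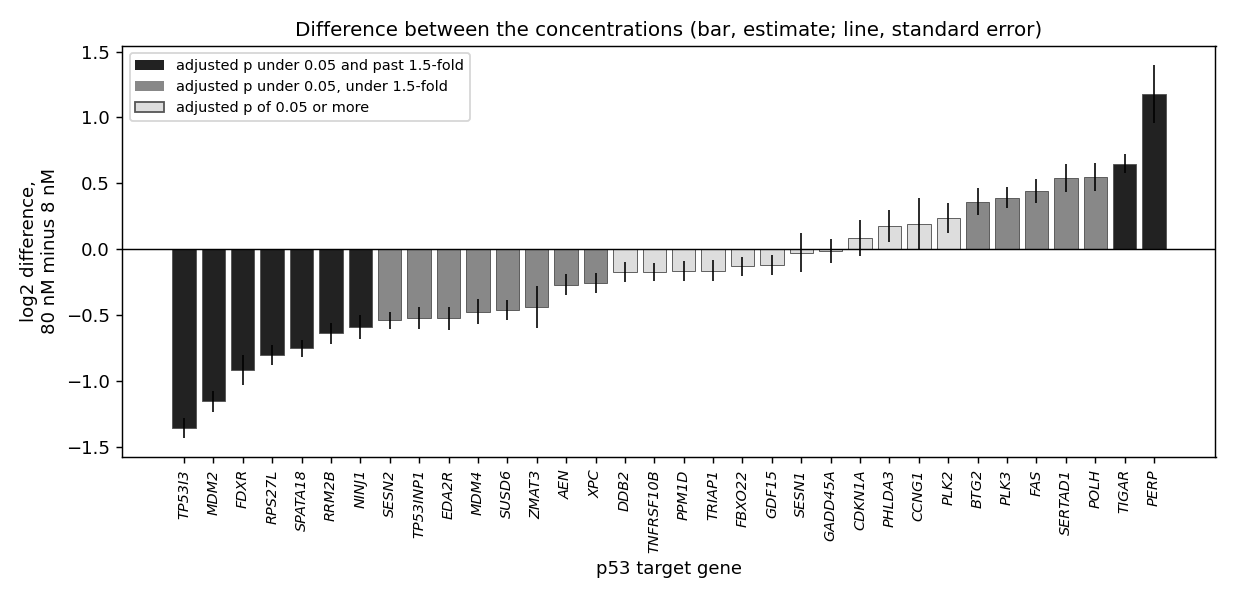
Log2 difference between 80 nM and 8 nM DIG-MSK for the 34 p53 target genes, sorted by size, with bars for the limma estimate and lines for the standard error. Black bars passed both the fold limit and the adjusted p, from -1.36 for TP53I3 to 1.18 for PERP, dark gray bars passed the adjusted p alone, and pale bars passed neither.

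Promoter sequences were read for the genes that rose most at 80 nM (BTG2, FAS and CDKN1A) and for those with the largest drop from 8 nM to 80 nM (TP53I3 and MDM2), because DIG-MSK binds C/G-rich DNA and the GC box is a common C/G-rich element of promoters. RefSeq windows on GRCh38.p14 (250 bases before and 50 after each start) were matched by symbol for 29 of the 36 genes, 42 windows in all, some of which overlap. The 250 bases before the start are shown 5′ to 3′ on the strand of the gene. Capitals mark the GC box GGGCGG, read on either strand as GGGCGG or CCGCCC.
BTG2, chr1:203305269-203305518, forward strand: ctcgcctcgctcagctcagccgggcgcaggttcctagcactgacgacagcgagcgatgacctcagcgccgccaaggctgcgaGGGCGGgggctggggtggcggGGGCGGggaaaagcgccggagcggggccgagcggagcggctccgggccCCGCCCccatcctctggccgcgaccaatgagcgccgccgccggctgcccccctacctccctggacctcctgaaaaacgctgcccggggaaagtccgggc
FAS, chr10:88990548-88990797, forward strand: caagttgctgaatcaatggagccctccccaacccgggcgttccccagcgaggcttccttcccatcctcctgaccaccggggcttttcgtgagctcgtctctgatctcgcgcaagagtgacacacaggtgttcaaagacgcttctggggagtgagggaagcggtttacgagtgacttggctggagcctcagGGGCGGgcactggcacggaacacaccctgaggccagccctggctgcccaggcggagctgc
CDKN1A, chr6:36678464-36678713, forward strand: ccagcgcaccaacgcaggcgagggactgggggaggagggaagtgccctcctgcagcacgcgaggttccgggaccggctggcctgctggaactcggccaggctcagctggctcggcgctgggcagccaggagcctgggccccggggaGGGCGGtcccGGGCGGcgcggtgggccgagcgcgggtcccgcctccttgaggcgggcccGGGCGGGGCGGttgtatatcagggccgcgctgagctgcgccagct
MDM2, chr12:68808767-68809016, forward strand: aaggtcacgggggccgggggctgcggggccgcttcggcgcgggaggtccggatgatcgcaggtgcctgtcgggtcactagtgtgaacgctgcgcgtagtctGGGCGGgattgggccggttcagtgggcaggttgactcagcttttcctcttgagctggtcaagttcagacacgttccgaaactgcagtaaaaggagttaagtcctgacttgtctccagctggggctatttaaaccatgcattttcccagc
TP53I3, chr2:24084835-24085084, reverse strand: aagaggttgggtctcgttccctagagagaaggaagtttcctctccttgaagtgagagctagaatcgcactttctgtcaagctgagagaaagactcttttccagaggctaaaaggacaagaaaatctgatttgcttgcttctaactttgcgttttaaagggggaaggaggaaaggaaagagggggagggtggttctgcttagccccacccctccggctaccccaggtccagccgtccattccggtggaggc
The CDKN1A stretch held 4 GC boxes, the pair nearest the start overlapping, and 76.4% of its bases were G or C. BTG2 held 3 boxes, FAS and MDM2 held 1 each, and TP53I3 held none, with 51.2% G or C. FAS has further starts, and its window farthest downstream held 2 GC boxes and 1 match to the p53 consensus counted below. The MDM2 stretch shown precedes the downstream start of the gene, the one known to respond to p53, and its windows at the upstream start held 1 GC box as well.

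Over the whole windows, at least 1 GC box was found in 27 of the 29 genes, or 93.1%, against 73.7% of the 11119 tested genes that had a window, and TP53I3 and MDM4 were the exceptions. By windows, 85.7% of the 42 held the box, against 63.5% of the 15974 windows of tested genes and 45.0% of all 35116 windows in the table. It was present in 18 of the 19 windows of genes up-regulated at both doses and in 11 of the 14 windows of genes up-regulated at 8 nM alone. These windows belong to 13 and 9 genes, some with several starts. Among these genes TP53I3 alone had no window with the box. A CCAAT box, searched as CCAAT on both strands, was present in 45.2% of the windows against 35.0% of those of tested genes and 34.6% of all windows, and TATAAA, on both strands, in 2.38% against 7.17% and 11.5%. The decamer consensus of p53, which reads alike on both strands, occurred in the windows of 7 genes, or 24.1%, against 7.55% of tested genes. Only exact matches were counted, so p53 elements that depart from the consensus were missed within the windows as well. The MDM2 windows, including the stretch shown, held no exact match, which does not mean that they lack a p53 element. These matches describe letters in a short window and not binding, and many p53 elements are known to lie outside such windows.

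Genes that feed back on p53 gave 3 calls among 5 at 8 nM (60%, against 3.7% of all genes). At 80 nM they gave 1 call among 5 (20%, against 18.4% of all genes). MDM2 (NM_002392), the ubiquitin ligase that degrades p53, had levels of -0.37, -0.19 and -0.26 in untreated cells, 1.08, 1.19 and 1.13 at 8 nM, and -0.14, 0.01 and 0.06 at 80 nM. The 8 nM arrays thus stood far above both other groups, while the 80 nM arrays lay just above the untreated ones without overlap. The log2 change was 1.41 (standard error 0.08, limma adjusted p = 5.5e-05) at 8 nM and 0.25 (adjusted p = 0.027) at 80 nM, and the difference between the doses was -1.16 (adjusted p = 9.7e-06). Another MDM2 probe gave 1.24 at 8 nM and -0.14 at 80 nM, and one more gave 0.87 and 0.52. Neither passed the test at 80 nM, and at 8 nM the former alone did.

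MDM4 (NM_002393), the partner of MDM2 that masks the activation domain of p53, lay at 0.62, 0.55 and 0.72 in untreated cells, at 0.54, 0.45 and 0.71 at 8 nM, and at -0.02, 0.20 and 0.10 at 80 nM. Only the 80 nM arrays stood apart, below all others. Its fall of 0.54 on the log2 scale at 80 nM (standard error 0.10, limma adjusted p = 0.0015) stayed under the fold limit and passed it without replicate 2 at 80 nM, at -0.59. Its other probe fell further, with a change of -1.32 (adjusted p = 0.00031 over all probes). PPM1D, a phosphatase that silences the damage signal to p53, rose by 0.71 at 8 nM and by 0.54 at 80 nM, the latter under the fold limit, but its second probe gave 0.33 and -0.35 and passed neither test. FBXO22, an F-box protein of a ubiquitin ligase, rose by 0.70 and 0.57, and without untreated replicate 1 its change at 80 nM was 0.60 and was called. Cyclin G1 (CCNG1) had changes of 0.61 (adjusted p = 0.073) and 0.81 (adjusted p = 0.0073), and without replicate 2 at 8 nM the first was 0.83 and was called. A second CCNG1 probe gave 0.06 and -0.48, so its call rests on the brighter probe.

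**Figure D3:**
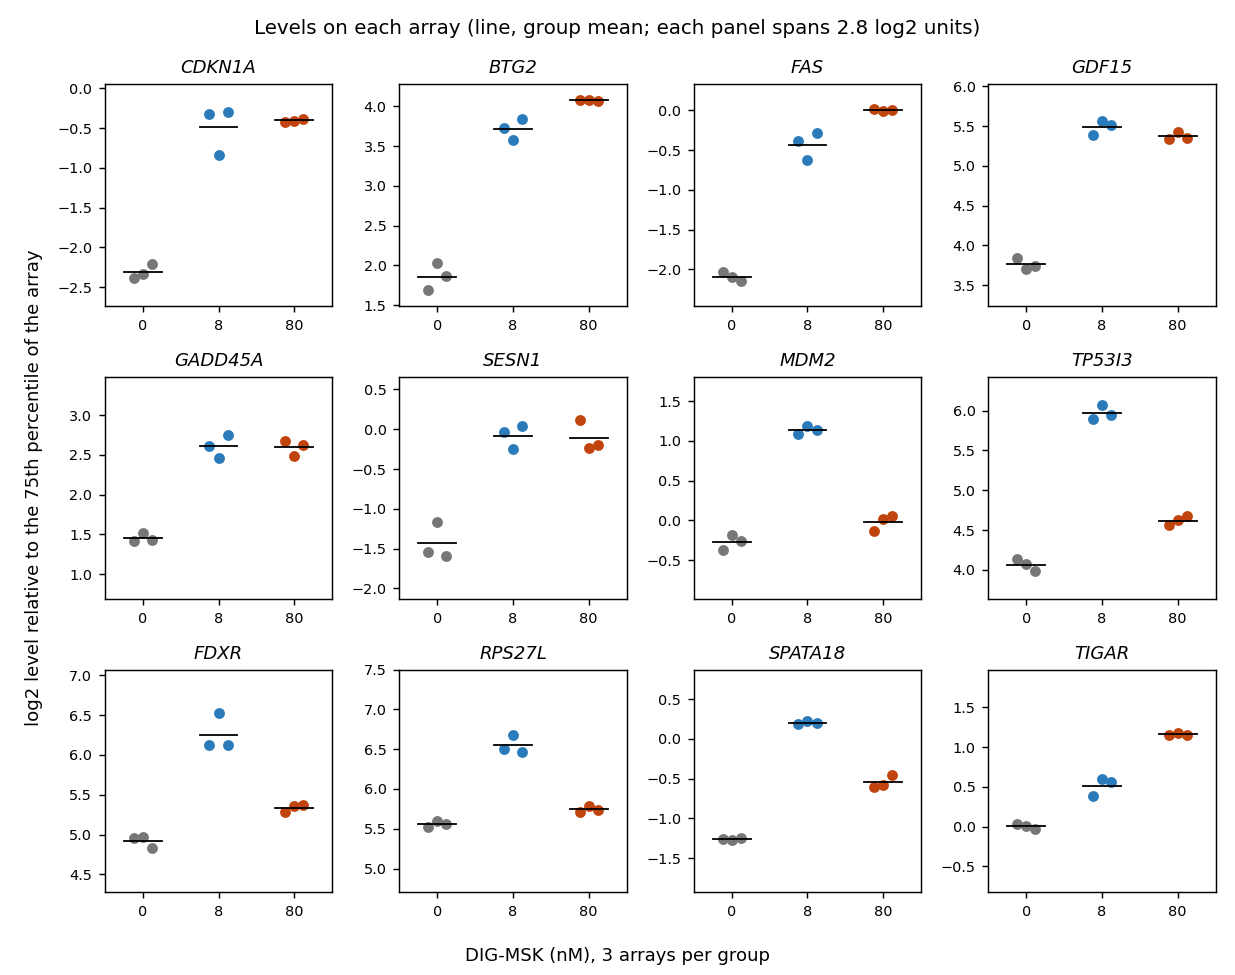
Levels of 12 p53 target genes on each of the 9 arrays, as log2 intensity relative to the 75th percentile of the array, by DIG-MSK concentration (0, 8 and 80 nM). Points are arrays and lines are group means, and every panel spans the same range. CDKN1A, BTG2, FAS, GDF15, GADD45A and SESN1 stayed high at 80 nM, MDM2, TP53I3, FDXR, RPS27L and SPATA18 were lower there than at 8 nM, and TIGAR was higher.

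Genes of cell cycle arrest and stress signalling held their increase at the higher dose. At 8 nM 5 of 6 were up-regulated (83.3%, against 3.7% of all genes), and at 80 nM 6 of 6 (100%, against 18.4%). CDKN1A (NM_078467), which encodes the cyclin-dependent kinase inhibitor p21, had levels of -2.38, -2.33 and -2.21 in untreated cells, -0.33, -0.84 and -0.30 at 8 nM, and -0.42, -0.41 and -0.38 at 80 nM. All treated arrays lay more than 1 log2 unit above the untreated arrays, and replicate 2 at 8 nM was the lowest of them. The changes were 1.82 (standard error 0.14, limma adjusted p = 0.00019) and 1.91 (adjusted p = 1.1e-05), and the difference between the doses was 0.08 with a 95% interval from -0.23 to 0.40.

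BTG2 (NM_006763), an antiproliferative protein that promotes mRNA deadenylation, lay at 1.69, 2.02 and 1.86 in untreated cells, at 3.73, 3.58 and 3.84 at 8 nM, and at 4.08, 4.08 and 4.07 at 80 nM. The groups formed 3 separate steps. The rise from 8 nM to 80 nM was 0.36 (95% interval 0.13 to 0.60, limma adjusted p = 0.015), under the fold limit. GADD45A, a damage-inducible stress protein, lay between 1.42 and 1.52 in untreated cells, from 2.47 to 2.75 at 8 nM, and from 2.49 to 2.67 at 80 nM. The dosed arrays overlapped each other and not the untreated ones, and the difference between the doses had a 95% interval from -0.23 to 0.19. The polo-like kinases PLK2 and PLK3 rose by 1.04 and 0.77 at 8 nM and by 1.27 and 1.16 at 80 nM, and the further rise of PLK3 passed the test (0.39, limma adjusted p = 0.004) while that of PLK2 did not (0.23, adjusted p = 0.11). SERTAD1, a transcriptional co-regulator that binds CDK4, had a change of 0.29 at 8 nM, which did not pass (adjusted p = 0.11), and of 0.83 at 80 nM. Its difference between the doses, 0.54, was under the fold limit and reached 0.64, past it, without replicate 2 at 8 nM.

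All 4 genes of DNA repair and nucleotide supply were up-regulated at both doses, POLH at 8 nM only narrowly. Of all genes, 3.7% were up-regulated at 8 nM and 18.4% at 80 nM. DDB2 and XPC, which recognize lesions in nucleotide excision repair, rose by 0.88 and 0.88 at 8 nM and by 0.70 and 0.62 at 80 nM. The XPC change at 80 nM was 0.58, under the fold limit, without untreated replicate 3. RRM2B, the p53-inducible subunit of ribonucleotide reductase, had levels from -1.99 to -1.74 in untreated cells, from -0.53 to -0.49 at 8 nM and from -1.19 to -1.11 at 80 nM. Its groups did not overlap, and it fell by 0.64 from 8 nM to 80 nM (limma adjusted p = 0.00021). That drop was not called with normexp background correction or the authors' value table. A second RRM2B probe gave changes of 0.51 and -0.38 that did not pass the test. With the mean of its probes RRM2B lost its calls at both doses, and with the spike-in scaling the call at 80 nM. POLH, the polymerase that copies past ultraviolet lesions, went the other way, from -1.31 to -1.22 in untreated cells to -0.83 to -0.44 at 8 nM and -0.22 to -0.05 at 80 nM. Its change at 8 nM, 0.60, was just past the fold limit and fell short of it without untreated replicate 3 (0.58) or without replicate 2 at 8 nM (0.48). It was not called either with normexp background correction (0.51), the authors' value table (0.53) or the mean of its probes (0.54), nor with the spike-in scaling, at 0.67 with an adjusted p of 0.14 from limma. From 8 nM to 80 nM it rose by 0.55, under the fold limit, and by 0.67 without replicate 2 at 8 nM or 0.60 without replicate 1 at 80 nM, both past it. A dimmer POLH probe gave 0.48 and 0.33 with neither past the test.

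Of the death receptors, FAS (NM_000043) responded most. Its levels were -2.03, -2.09 and -2.15 in untreated cells, -0.39, -0.63 and -0.29 at 8 nM, and 0.016, -0.005 and 0.010 at 80 nM. Again the groups formed 3 steps with no overlap. FAS rose by 1.66 at 8 nM (3.15-fold, limma adjusted p = 4.9e-05) and by 2.10 at 80 nM (4.28-fold, adjusted p = 7.2e-07), and its other probes gave 1.81 and 1.64 at 8 nM and 2.42 and 2.12 at 80 nM. EDA2R, a receptor of the ectodysplasin branch of the TNF family, rose by 1.26 and 0.73, and the drop between the doses, -0.53, reached -0.58 and the fold limit without replicate 3 at 8 nM. A dimmer EDA2R probe gave 0.81 and 0.29. The EDA2R call at 80 nM was lost with the mean of its probes or the spike-in scaling. TNFRSF10B, a TRAIL receptor with a death domain, rose by 0.45 and 0.28, under the fold limit at both doses.

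The other genes of cell death and survival were mixed. At 8 nM 6 of 9 were up-regulated (66.7%, against 3.7% of all genes), and at 80 nM 3 of 9 (33.3%, against 18.4%). TP53INP1, a p53 cofactor linked to autophagy and cell death, lay between -1.01 and -0.90 in untreated cells, from 0.49 to 0.77 at 8 nM, and from 0.06 to 0.16 at 80 nM. Its changes were 1.59 and 1.06, and the drop of 0.53 between the doses was under the fold limit (without replicate 1 at 8 nM, -0.60 and past it). A dimmer TP53INP1 probe gave 0.94 and 0.48, and neither passed the test. RPS27L (NM_015920), a ribosomal protein paralog, had levels of 5.53, 5.59 and 5.56 in untreated cells, 6.50, 6.68 and 6.46 at 8 nM, and 5.71, 5.79 and 5.74 at 80 nM. The 8 nM arrays were about 1 log2 unit above the untreated ones, while at 80 nM the change was 0.19 and did not pass the test (limma adjusted p = 0.062). NINJ1, a membrane protein of lytic cell death, followed the same course with 0.70 and 0.11, the latter short of the test (adjusted p = 0.32). The NINJ1 drop between the doses was -0.59, and it lost its call without replicate 2 at 8 nM (-0.52) or replicate 1 at 80 nM (-0.54).

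ZMAT3, an RNA-binding zinc finger protein, and SUSD6, a membrane protein induced by p53, rose by 0.99 and 0.89 at 8 nM and by 0.56 and 0.42, under the fold limit, at 80 nM. The change of ZMAT3 at 80 nM was called without untreated replicate 2 (0.59) or 3 (0.62), and its drop of 0.44 between the doses was -0.62, and was called, without replicate 2 at 8 nM. TRIAP1, a mitochondrial lipid transfer protein that favors survival, rose by 0.84 and 0.68, whereas the nuclease AEN rose by 0.55 and 0.28, under the fold limit, and by 0.60 at 8 nM, past it, without replicate 2 of that dose. PERP and PHLDA3 were measured by dim probes. PERP, a tetraspan protein of desmosomes, had levels of -5.44, -5.43 and -5.26 in untreated cells, -5.31, -5.91 and -5.37 at 8 nM, and -4.66, -4.51 and -3.89 at 80 nM, and it was well above background on 2 of the 3 arrays at 8 nM. Only the 80 nM arrays stood apart, with a change of 1.03 (limma adjusted p = 0.0044) that was not called with normexp background correction, the spike-in scaling or the authors' value table. PHLDA3, which restrains AKT, did not pass the test at either dose, with changes of -0.13 and 0.04.

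Genes of metabolism, redox balance and mitochondria were up-regulated in 5 of 6 cases at 8 nM (83.3%, against 3.7% of all genes). At 80 nM 3 of 6 were (50%, against 18.4%). As lower at 80 nM than at 8 nM, 4 of them passed the test (66.7%, against 22.9% of all genes), 3 with a call (50%, against 13.8%). TP53I3 (NM_004881), a quinone oxidoreductase also called PIG3, had levels of 4.13, 4.08 and 3.98 in untreated cells, 5.90, 6.08 and 5.95 at 8 nM, and 4.56, 4.62 and 4.68 at 80 nM. The 3 groups did not overlap, and the 80 nM arrays lay closer to the untreated than to the 8 nM arrays. TP53I3 rose by 1.91 at 8 nM (3.76-fold, standard error 0.08, limma adjusted p = 1.5e-05), the largest change on the list at this dose, and by 0.56 at 80 nM, under the fold limit (0.59 and called without untreated replicate 1). The difference of 80 nM from 8 nM was -1.36 on the log2 scale (95% interval -1.53 to -1.18), and its other probe gave -1.52.

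FDXR (NM_004110), the reductase that feeds electrons to mitochondrial cytochromes, lay at 4.95, 4.97 and 4.83 in untreated cells, at 6.13, 6.52 and 6.12 at 8 nM, and at 5.29, 5.36 and 5.38 at 80 nM. The steps were again separate, with changes of 1.34 and, under the fold limit, 0.42. SPATA18, a regulator of mitochondrial quality control, moved from about -1.26 in untreated cells to a range of 0.19 to 0.22 at 8 nM, and of -0.61 to -0.45 at 80 nM, or by 1.47 and 0.71. The sestrins, stress proteins that restrain mTORC1, differed from each other. SESN1 rose by 1.36 and 1.33, with a 95% interval of the difference between the doses from -0.37 to 0.32. SESN2 rose by 0.61 at 8 nM, just past the fold limit and short of it without replicate 2 at 8 nM (0.58), and by 0.07 at 80 nM, which did not pass (limma adjusted p = 0.36). Its drop between the doses, -0.54 (adjusted p = 0.00019), was under the fold limit and was called, at -0.90 to -0.59, with normexp background correction, quantile or spike-in scaling or the authors' value table. TIGAR (NM_020375), a phosphatase that slows glycolysis, had levels of 0.03, 0.01 and -0.03 in untreated cells, 0.39, 0.59 and 0.57 at 8 nM, and 1.15, 1.18 and 1.16 at 80 nM. Here the 80 nM arrays were the highest, with changes of 0.51, under the fold limit, and 1.16, and a difference of 0.65 (adjusted p = 0.00014) that was 0.58 and no longer called without replicate 1 at 8 nM.

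GDF15 (NM_004864), a stress cytokine of the TGF-beta family and the only secreted factor on the list, lay at 3.84, 3.71 and 3.75 in untreated cells, at 5.39, 5.56 and 5.52 at 8 nM, and at 5.34, 5.42 and 5.36 at 80 nM. Treated and untreated arrays were far apart, whereas the arrays of the 2 doses overlapped. It rose by 1.73 (3.31-fold, limma adjusted p = 1.7e-05) and 1.61 (3.05-fold, adjusted p = 8.9e-07), and the difference between the doses had a 95% interval from -0.29 to 0.05.

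Of the genes that act upstream of p53 or modify it, 0 of the 23 reported were called at 8 nM by limma, also at an unadjusted p. Of all genes, 3.7% were up-regulated and 1.39% down-regulated there. Under the fold limit 1 of the 23 rose and 2 fell. By the adjusted p alone these were 4.35% and 8.7%, against 7.89% and 5.69% of all genes, so the counts were near those of all genes. At 80 nM, 4 of the 23 were up-regulated and 4 down-regulated (17.4% each, against 18.4% and 15.9% of all genes), shares near those of all genes. RCHY1, PRKDC and PPP1R13L were up-regulated at 80 nM by 0.92, 0.80 and 0.74, and the kinase ATR, named after its value was seen, by 0.69. CDKN2A, whose locus encodes the MDM2 inhibitor ARF, the acetyltransferase CREBBP and the p53-binding protein PPP1R13B were down-regulated with changes of -1.69, -1.19 and -0.94, though a second PPP1R13B probe gave 0.17. The kinase HIPK2 was down-regulated with a change of -1.08, which was -0.93 and did not pass the test without replicate 1 at 80 nM (limma adjusted p = 0.057), and untreated replicate 3 lay apart from the other untreated arrays. With the spike-in scaling 0 of these genes were up-regulated, against 8.22% of all genes at 80 nM.

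Further p53 targets that are not among the 36 genes gave a smaller share of calls. Of 32 tested, 16 were up-regulated at 8 nM (50%, against 3.7% of all genes), with a median change of 0.57. By limma 0 were down-regulated (1.39% of all genes), also at an unadjusted p (2.84%). With the spike-in scaling 8 were up-regulated, against 1.58% of all genes. At 80 nM, 9 were up-regulated (28.1%, against 18.4% of all genes) and 5 down-regulated (15.6%, against 15.9%). The down-regulated genes numbered 8 with the spike-in scaling, 2 with normexp background correction and 3 when all 9 arrays had to be well above background. The median change was 0.23, against 0.08 for all genes. THBS1, a matrix glycoprotein, and KITLG, the ligand of the KIT receptor, had changes of 0.12 and 0.21 at 8 nM, neither past the test, and rose by 2.59 and 2.24 at 80 nM. The cytokine LIF rose at both doses, by 1.24 and 1.91. TNFRSF10D, a TRAIL receptor that lacks a working death domain, rose by 0.86 at 8 nM and was down-regulated at 80 nM with a change of -4.02 (limma adjusted p = 1.2e-08), from levels between 0.88 and 0.98 in untreated cells to between -3.17 and -2.98. PMAIP1 and ATF3 were down-regulated at 80 nM, with changes of -1.20 and -1.08, but ATF3 probes disagreed, from -1.08 to -0.04. The PMAIP1 change was not called with normexp background correction. Its untreated replicate 1, at -2.89, lay apart from the other untreated arrays, at -3.95 and -3.80. TRIM22 rose by 1.84 at 8 nM and was not well above background on any 80 nM array. Its change at 80 nM, -0.96, thus rests on signal near background. That drop was not called with normexp background correction or the authors' value table. PRDM1 was well above background on the 8 nM arrays alone. Its log2 change there, 1.29 (95% interval 0.865 to 1.709), thus rests on untreated signal near background. With normexp background correction the change was 0.40 and was not called. The mitochondrial death genes BAX and BBC3, named after their values were seen, rose by 0.90 and 0.90 at 8 nM and had changes of -0.37 and -0.08 at 80 nM, of which that of BAX passed the test downward (adjusted p = 0.028). A second BAX probe gave 0.37 and -0.10, and neither passed.

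Cell cycle genes that p53 is known to lower through p21 and the DREAM repressor complex were tested as a list of 23. At 8 nM, 16 of the 23 passed the test downward, against 5.69% of all genes, 14 of them under the fold limit, and 0 passed upward, with a median change of -0.34. The regulators MYBL2 and E2F1 were down-regulated (8.7% of the list, against 1.39% of all genes), with changes of -0.79 and -0.67. With the spike-in scaling 0 genes of the list were, against 0.119% of all genes. At 80 nM, 6 passed upward and 6 downward (26.1% each, against 33.2% and 25.6% of all genes), with a median of 0.03. With the spike-in scaling 6 of the 23 were down-regulated, where 22.7% of all genes were. The mitotic kinase CDK1 was up-regulated by 1.13 and the replication gene MCM5 was down-regulated with a change of -0.93, while MYBL2 had a change of 0.23, which passed the test upward under the fold limit. The number down-regulated was 2 without untreated replicate 3, and the number up-regulated was 2 without untreated replicate 2 or without replicate 2 at 80 nM.

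**Figure D4:**
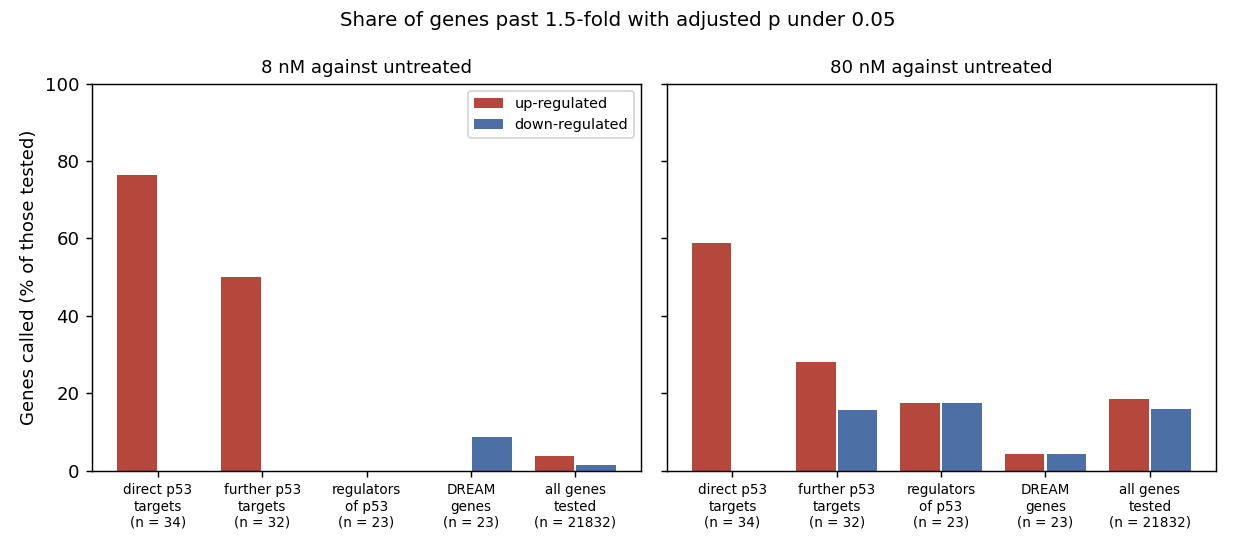
Share of tested genes that were up-regulated (red) or down-regulated (blue) at 8 nM (left) and 80 nM (right) DIG-MSK against untreated cells, for the 34 direct p53 targets, 32 further targets, 23 upstream regulators of p53, 23 DREAM genes and all 21832 genes. Among the direct targets 76.5% were up-regulated at 8 nM and 58.8% at 80 nM, against 3.7% and 18.4% of all genes.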

How the data were processed

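RNA of A2780 cells was measured on 9 one-color arrays, 3 per group, grouped by the labels. The authors extracted spots with Agilent Feature Extraction 10.7.3.1, and the deposited processed intensity is background-subtracted but not scaled between arrays. The methods also name a lowess normalization, which was not applied here to these files of 1 channel. The authors' value table holds log2 values and served as an alternative.

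Flagged outlier spots and 4259 control spots were left out, spots of a probe were averaged, and the log2 intensity was taken relative to the 75th percentile of gene spots. Probes had to be well above background throughout a group, that is on its 3 arrays, in 1 group or more, which left 26457 probes, and each gene was represented by its brightest kept probe. RefSeq accessions were carried by 26576 gene probes, and a RefSeq table gave 25713 of them a symbol. All 9 arrays entered 1 linear model per gene with moderated variances (limma 3.58.1 under R 4.3.3), and p-values were adjusted by Benjamini-Hochberg over 21832 genes. The procedure was tested on simulated data. The number of arrays limits the precision.

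The members and lists were chosen with earlier results of these data known. All members are accounted for, and from each other list up to 4 called genes per direction, by size of change, are named, except items that are not reported here. The study's methods give a p threshold without naming an adjustment, so the unadjusted p is an alternative here. Alternatives were normexp background correction (offset 50), quantile and spike-in scaling, the authors' values, other probe filters, the mean of a gene's probes, only the groups compared, the replicate number as a block, the fold limit, and each array left out.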

Additional observations from a re-analysis of the deposited data

How the results depend on the processing

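Across the alternatives no called change of a p53 target turned its sign, and of the comparisons of single genes 1871 of 1969 kept their direction and side of the call, 27 kept the side with a turned sign (the 7 targets named for the spike-in scaling at 80 nM among them), 44 fell short of the call and 27 newly reached it, leaving aside the setting with no fold limit. The count of targets up-regulated at 8 nM was 26 and moved to 16 with scaling to the spike-in probes (3.7% and 1.58% of all genes). At 80 nM the 20 up-regulated targets became 11 with that scaling (18.4% and 8.22% of all genes), and 1 was down-regulated (22.7%). Likewise 1 was down-regulated with the mean of a gene's probes (15.7%) and 1 with the adjusted p and no fold limit (25.6%). For 80 nM against 8 nM, 2 targets were higher and 7 lower. These became 0 and 12 with the spike-in scaling (5.91% and 23.2% of all genes) and 7 and 15 with no fold limit (34.6% and 22.9%). With normexp background correction, or when probes had to be well above background on all 9 arrays, 1 was higher. The cause was not tested, except that the last setting leaves out PERP and that dropping the fold limit can only add calls.

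With each array left out in turn, the targets up-regulated at 8 nM numbered 25 to 26 and those down-regulated 0 to 0. At 80 nM they numbered 20 to 22 and 0 to 1. Between the doses 1 to 4 were higher and 6 to 8 lower. The highest count, 4, came without replicate 2 at 8 nM, the lowest, 1, without replicate 1 at 8 nM, and the down-regulated gene at 80 nM appeared without replicate 2 at 80 nM.

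Same-numbered arrays of the untreated and 8 nM groups had deviations that correlated at 0.1114, 0.0995 and 0.1579. Differently numbered arrays of these groups correlated between -0.1219 and -0.0043. In pairs involving 80 nM, same-numbered arrays correlated between -0.12 and 0.0138, and differently numbered ones between -0.1311 and 0.1208. Whether the replicate number pairs the samples was not tested. With the replicate number as a block the counts were 26 and 0 at 8 nM, 20 and 0 at 80 nM, and 2 and 7 between the doses. In a fit of the untreated and 8 nM arrays alone with that block, chosen after seeing the data, 23 targets were up-regulated and 0 down-regulated, and POLH, NINJ1 and ZMAT3 lost their calls. The scaling shifts of the 80 nM arrays, the slide shared by that group and dim probes, as for PERP and PHLDA3, are limits. So are second probes that differ, as for PPM1D, CCNG1, RRM2B, MDM4, AEN, TP53INP1 and EDA2R. These limits were not ranked.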
